A study of Mus musculus with 2 samples.

Results

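The miR-302 and miR-290 clusters, the miRNA genes best known from mouse embryonic stem cells, were read at low levels in microRNA sequencing of embryonic mouse stomach. Their 9 genes were taken by name from 1973 listed miRNA genes: Mir302a, Mir302b, Mir302c, Mir302d and Mir367 of the miR-302 cluster, and Mir291a, Mir293, Mir294 and Mir295 of the miR-290 cluster. The miR-302 genes summed to 690 sense-strand counts in replicate 1 and 867 in replicate 2, against 61 and 54 for the 4 miR-290 cluster genes. Nearly all of the first sum lay on Mir302a, Mir302d and Mir302b, while Mir367 was listed at 0 in both libraries.

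Total RNA below 30 bases came from whole stomach of healthy B6NCrl embryos at embryonic day 15.5, of pooled sexes, with no treatment or second genotype named in the labels. Stomachs of 78 embryos were pooled for replicate 1 and those of 62 for replicate 2, and these pools form the only group. Comparisons are therefore between genes within a library and between the 2 pools. CPM below is a gene's sense count scaled to a common library total. That total, the sense counts of all listed miRNA genes, was 5988677 in replicate 1 against 6675498 in replicate 2. Where a gene has 0 counts, up to 3 counts remain possible, which is 0.501 CPM in replicate 1 and 0.449 CPM in replicate 2. That limit and all intervals below cover counting error only, with each read taken as an independent count, since reads carry no molecular identifiers. They do not cover differences between sequences in how well each is captured and read. Ratios between genes below are therefore ratios of reads.

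miRNAs are cut from hairpin transcripts, and the bases 2 to 8 of the mature strand, the seed, set most of their target recognition. The miR-290 cluster is the main miRNA cluster of naive mouse embryonic stem cells, and the miR-302 cluster is known from the slightly later, primed state and from early endoderm. Both promote rapid cell division in stem cells, and both give way during differentiation to miRNAs such as the let-7 family. In RNA from a whole organ, fewer cells of a type and less of an RNA per cell cannot be told apart.

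The seed is what joins the 2 clusters, so the strands that carry it are shown first. They were taken from RefSeq on GRCm38.p6, which held a mature sequence for all 9 genes. All are written 5′ to 3′ with bases 2 to 8 in capitals. Of the genes with mature sequences in RefSeq, 5 carried AAGUGCU at bases 2 to 8, and all 5 are among the 9 genes: Mir302b and Mir302d on chromosome 3, and Mir291a, Mir294 and Mir295 on chromosome 7.
miR-302b-3p: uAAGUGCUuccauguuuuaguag
miR-302d-3p: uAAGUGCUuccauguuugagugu
miR-291a-3p: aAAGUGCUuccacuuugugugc
miR-294-3p: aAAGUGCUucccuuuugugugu
miR-295-3p: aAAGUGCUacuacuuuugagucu

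The next 3 strands differ from that seed, and their genes are needed for the comparisons below. In miR-302c-3p the letters AAGUGC begin at base 1, so its bases 2 to 8 read AGUGCUU. Those of miR-293-3p read GUGCCGC, and those of miR-367-3p read AUUGCAC, the seed of another family.
miR-302c-3p: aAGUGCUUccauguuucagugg
miR-293-3p: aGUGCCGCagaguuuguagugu
miR-367-3p: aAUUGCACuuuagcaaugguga

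For Mir302a, the most abundant of the 9 genes, RefSeq held miR-302a-5p and the hairpin. The hairpin of 69 bases (mm10 chromosome 3, 127545496 to 127545564, plus strand) is printed because AAGUGCU occurs in it 1 time. The capitals mark that match, at bases 45 to 51 counted from 1 at the 5′ end.
Mir302a hairpin: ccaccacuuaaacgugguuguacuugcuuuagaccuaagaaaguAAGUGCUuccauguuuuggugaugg

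The 5 hairpins of the miR-302 cluster lie on the plus strand of chromosome 3 between 127545228 and 127545807, in an intron of Larp7, which is transcribed from the minus strand. Their order is Mir302b, Mir302c, Mir302a, Mir302d and Mir367, and Mir367 starts 505 bases after Mir302b. On the plus strand of chromosome 7, the miR-290 cluster genes studied run from the start of Mir291a at 3218919 to the end of Mir295 at 3220841. Their hairpins lie opposite a UTR exon of Nlrp12 on the minus strand. Coordinates are those of GENCODE M21 on mm10. No member had a count on the opposite strand, in either library.

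Mir302a, which gives miR-302a, stood highest, with 303 counts in replicate 1 and 327 in replicate 2. These are 50.6 and 49.0 CPM, or 49.8 ± 1.14 CPM (SD, n = 2), and placed it at rank 227 by mean CPM, where 726 genes had any count. Mir302d had 235 and 329 counts, 39.2 and 49.3 CPM, with a mean of 44.3 ± 7.10 CPM. The order of these 2 genes was not settled: Mir302a was 1.29 times Mir302d in replicate 1 (95% exact Clopper-Pearson interval 1.08 to 1.54) and 0.994 times in replicate 2 (0.850 to 1.16).

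Mir302b followed with 135 and 190 counts, or 22.5 and 28.5 CPM (25.5 ± 4.19, SD, n = 2). It lay below Mir302d by almost the same factor in both libraries, since Mir302d was 1.74 times Mir302b in replicate 1 (1.40 to 2.17) and 1.73 times in replicate 2 (1.44 to 2.08). Mir302c, whose 3p strand starts a base further in, had 17 and 21 counts, or 2.84 and 3.15 CPM (2.99 ± 0.217). Mir302a exceeded it 17.8-fold in replicate 1 (10.9 to 31.0) and 15.6-fold in replicate 2 (10.02 to 25.5). Both libraries thus gave Mir302c as a low gene between neighbours of high count, which lie 135 bases upstream and 133 bases downstream, start to start.

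Mir367, at the 3′ end of the same cluster, had 0 counts in both libraries. The observed counts of Mir302a were 101-fold the Mir367 limit of 3 counts in replicate 1 and 109-fold in replicate 2. For Mir302c this was far smaller, 5.67-fold and 7.00-fold. These folds leave out the counting error of the higher gene. The lower ends of the Mir302c intervals were 1.65 and 1.95 CPM in replicates 1 and 2, against limits of 0.501 and 0.449 CPM. As shares of the cluster's counts, Mir302a held 43.9% (40.3 to 47.6, 95% Wilson interval) and 37.7% (34.6 to 41.0) in replicates 1 and 2. Mir302d held 34.1% (30.6 to 37.7) and 37.9% (34.8 to 41.2), Mir302b 19.6% (16.8 to 22.7) and 21.9% (19.3 to 24.8), and Mir302c 2.46% (1.54 to 3.91) and 2.42% (1.59 to 3.67). For each of these 4 genes the intervals of the 2 libraries overlapped, though for Mir302a only from 40.3% to 41.0%. Overlap is not a test, and a shift of the shares between the pools was not tested.

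**Figure D1:**
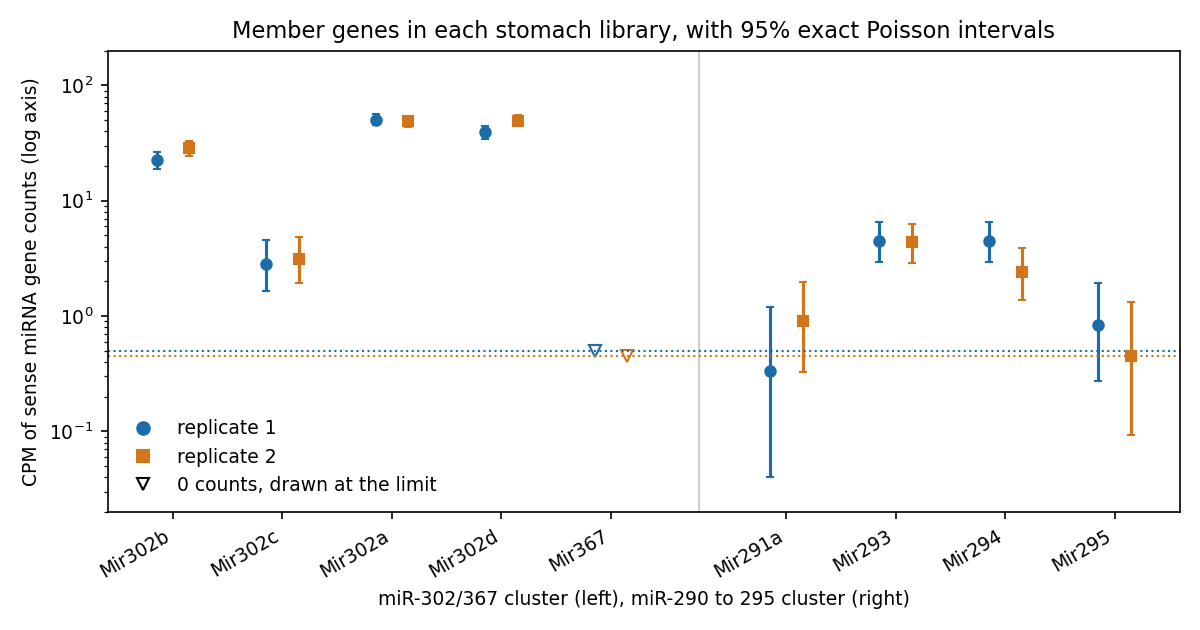
CPM (log axis) of the 9 genes in replicate 1 (circles) and replicate 2 (squares), with 95% exact Poisson intervals; dotted lines are the limits of 0.501 and 0.449 CPM that a count of 0 allowed, and triangles mark genes with 0 counts. Mir302a, Mir302d and Mir302b stand above 20 CPM, Mir302c, Mir293 and Mir294 between 2 and 5 CPM, and Mir291a and Mir295 near the limit.

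Of the miR-290 cluster, Mir293 and Mir294 were counted above the limit in both libraries. Mir293, whose seed differs from the rest, had 27 and 29 counts, 4.51 and 4.34 CPM (4.43 ± 0.116, SD, n = 2). Mir294, which carries AAGUGCU, had 27 and 16 counts, 4.51 and 2.40 CPM (3.45 ± 1.49). Their levels did not differ beyond counting error, as Mir293 was 1.00 times Mir294 in replicate 1 (0.564 to 1.77) and 1.81 times in replicate 2 (0.952 to 3.57). Nor did Mir294 differ from Mir302c, at 1.59 times in replicate 1 (0.835 to 3.11) and 0.762 times in replicate 2 (0.372 to 1.53).

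Mir295 had 5 and 3 counts and Mir291a 2 and 6 counts, so each passed the limit in 1 of the 2 libraries. Their means were 0.642 ± 0.273 CPM and 0.616 ± 0.399 CPM (SD, n = 2). The library that was higher for Mir295 was lower for Mir291a, and at this depth their order could not be read. Of all 9 genes, 6 had over 3 counts in both libraries: Mir302a, Mir302b, Mir302c, Mir302d, Mir293 and Mir294. Among all listed genes 23.3% did so.

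The rest of the miR-290 locus was as low. Listed there beside the 4 genes are Mir290a, Mir291b and Mir292. Mir292 had 23 and 12 counts, 3.84 and 1.80 CPM (2.82 ± 1.44, SD, n = 2), a level between those of Mir294 and Mir295. Mir291b had 0 and 1 counts and Mir290a 0 in both libraries. These 3 genes had no count on the opposite strand, where GENCODE M21 places Mir290b and Mir292b, which are not analysed here.

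**Figure D2:**
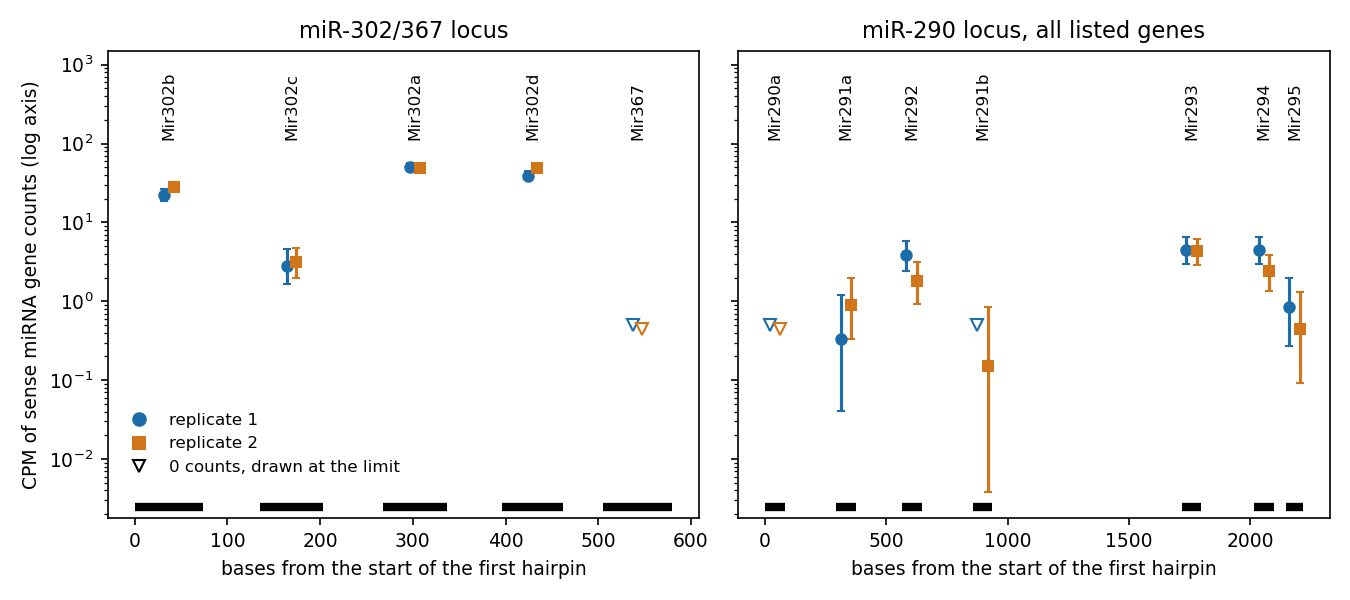
CPM (log axis) against position, in bases from the start of the first hairpin, for the miR-302 locus (left) and all listed genes of the miR-290 locus (right); black bars are hairpins, points with 95% exact Poisson intervals are replicate 1 (circles) and replicate 2 (squares), and triangles are 0 counts drawn at the limit. On the left Mir302c (2.99 CPM) lies low between Mir302b (25.5 CPM) and Mir302a (49.8 CPM), and Mir367 is at 0, while no gene of the right locus reaches 5 CPM.

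As clusters, the miR-302 genes summed to 115 CPM in replicate 1 (95% exact Poisson interval 107 to 124) and 130 CPM in replicate 2 (121 to 139), or 123 ± 10.4 CPM (SD, n = 2). The 4 miR-290 cluster genes summed to 10.2 CPM (7.79 to 13.1) and 8.09 CPM (6.08 to 10.6), or 9.14 ± 1.48 CPM. The miR-302 sum was thus 11.3-fold higher in replicate 1 (95% exact Clopper-Pearson interval 8.70 to 14.9) and 16.1-fold higher in replicate 2 (12.2 to 21.5). On the log2 scale the difference was 3.75 ± 0.36 (SD, n = 2), well above its SD between the pools. With all listed genes of the miR-290 locus counted it was 8.21-fold (6.54 to 10.4) and 12.9-fold (10.1 to 16.9). Both libraries therefore gave the same order of the clusters, with intervals far from equality. A permutation test over 2 libraries cannot reach a threshold of 0.05, so none is given.

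Hairpin length, 66 to 84 bases over the 9 genes, weighed little in this order. A sequenced read covers a mature strand rather than a share of the hairpin, so CPM is not divided by length above. Per 100 bases of hairpin, Mir302a stood at 73.3 and 71.0 CPM, Mir302d at 59.5 and 74.7 CPM and Mir302b at 30.5 and 38.5 CPM. Mir293 stood at 5.64 and 5.43, Mir302c at 4.17 and 4.63, Mir294 at 5.37 and 2.85, Mir295 at 1.21 and 0.651 and Mir291a at 0.407 and 1.10 on that scale. By the mean of these values Mir302c came before Mir294, the reverse of their order in CPM.

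Sequence shared between genes bears on which reads were counted, because reads that match several places stand on a line of their own in the tables. Bases 1 to 17 of miR-302b-3p and miR-302d-3p, printed above, are identical. The longest stretch that miR-302b-3p shared with any of 1004 other RefSeq hairpins was 18 of its 23 bases, with Mir302a. For miR-302d-3p it was 17 of 23 bases and for miR-302c-3p 16 of 22, both also with Mir302a. The Mir302a hairpin, searched whole, shared at most 20 bases, with Mir302b. A read trimmed to such a stretch matches more than 1 gene of the cluster. If it was counted as matching several places, it is in none of their counts. The settings that decide this are not known here.

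The other strands were more distinct. The 5p strands of Mir302a, Mir302b, Mir302c and Mir302d shared at most 13 bases with another hairpin. miR-367-5p and miR-367-3p shared at most 10 bases and 9 bases, and those of Mir293, Mir294 and Mir295 at most 10. An exception was miR-291a-5p, which shared 20 of its 22 bases with Mir291b. RefSeq held no Mir291a hairpin, so these lengths leave it out. Strand against strand, miR-294-3p and miR-291a-3p were identical over their first 11 bases. The tables give 1 count per gene, so 5p and 3p reads cannot be separated. How many reads of the 9 genes were lost to shared sequence was not tested.

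Counts of genes with the seed AAGUGCU lay mainly on the miR-302 side, where a count holds both 5p and 3p reads. The 5 genes that carry it in RefSeq's mature strands summed to 404 counts in replicate 1 and 544 in replicate 2, 67.5 and 81.5 CPM, of which Mir302b and Mir302d made up most. With Mir302a added, whose hairpin holds the same letters, the sums were 707 and 871 counts. Near relatives had far higher counts in the same libraries. The letters AAGUGC were searched in the 1679 mature sequences as printed, with no other strand, and 20 of them (1.19%) held them. In 8 of these they begin at base 2, as in miR-302b-3p and miR-294-3p, and in another 8 at base 3, as in the miR-17 family.

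The miR-17 family, which shares this core with its seed shifted by a base and is linked to proliferation, stood in all 6 of its listed genes above the limit. It summed to 45375 CPM in replicate 1 and 40276 CPM in replicate 2. That is 394 times the miR-302 sum in replicate 1 (365 to 425) and 310 times in replicate 2 (290 to 332). The lowest of the 6, Mir20b, had 692 and 750 counts, 114 ± 2.26 CPM (SD, n = 2), and lay above Mir302a by itself. Mir350 was the 1 gene outside the miR-302 and miR-290 loci whose mature strand, miR-350-5p, has AAGUGC at bases 2 to 7. It had 2771 and 1654 counts, 463 and 248 CPM.

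Genes that share the seed of Mir367 were also abundant. In RefSeq, 7 genes carry AUUGCAC at bases 2 to 8: Mir367 and the 6 of the miR-25 and miR-92 family, which lie outside the miR-302 cluster. A pair of them is shown to let the shared seed be seen beside miR-367-3p above.
miR-25-3p: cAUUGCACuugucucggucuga
miR-363-3p: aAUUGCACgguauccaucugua

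Those 6 genes were counted above the limit in both libraries, whereas Mir367 was at 0. Mir25 stood at 441 and 431 CPM, or 436 ± 7.32 CPM (SD, n = 2), and Mir363 at 96.5 and 108 CPM, or 102 ± 8.34 CPM. The highest, Mir92-1, stood at 2542 ± 126 CPM and the lowest, Mir92-2, at 88.5 ± 1.59 CPM; these 2 carry the same mature strand, miR-92a-3p, so their counts are uncertain. The family summed to 3582 and 3406 CPM. Counts of genes with this seed thus came from these 6 genes and, within its limit, not from Mir367.

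**Figure D3:**
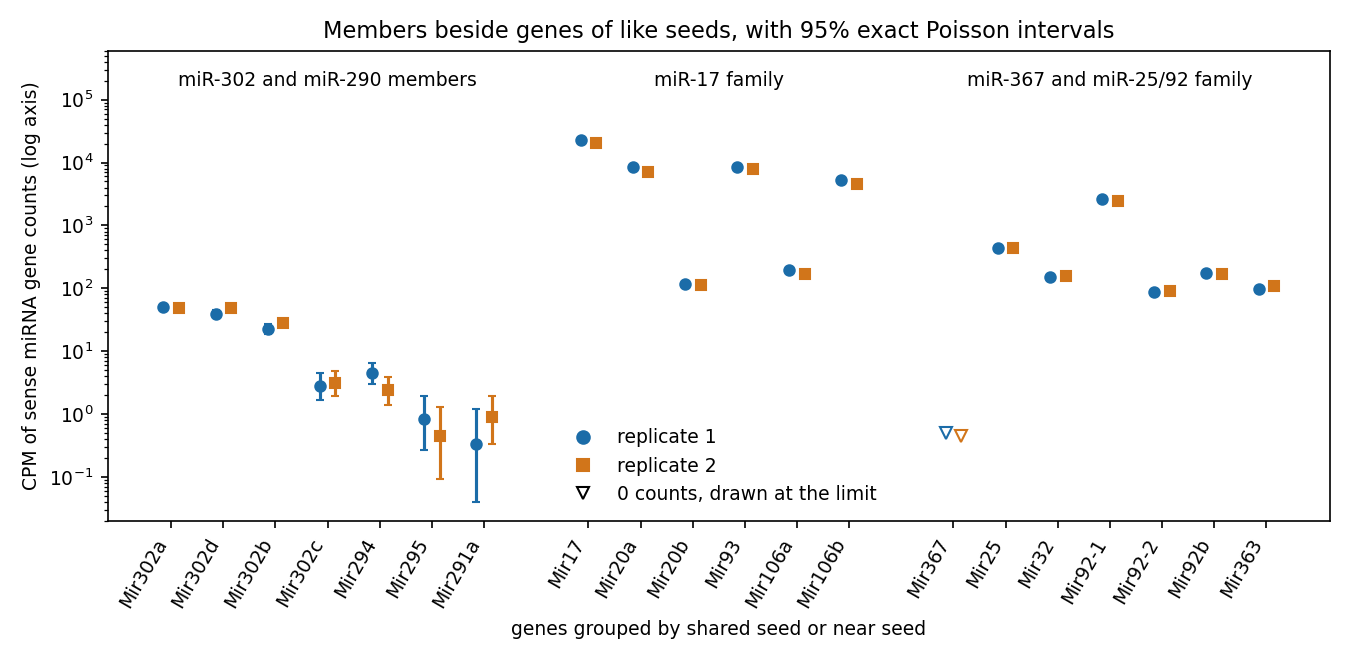
CPM (log axis) of 8 members beside genes with the same or a near seed, in replicate 1 (circles) and replicate 2 (squares) with 95% exact Poisson intervals; triangles are 0 counts drawn at the limit. All miR-17 family genes lie above Mir302a (49.8 CPM), and Mir367 lies below the 6 other genes of its seed, of which Mir92-2 is the lowest (88.5 CPM).

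At the other end of the scale, 15 X-linked testis genes served as a low reference for a tissue that should lack them. They summed to 14 counts in replicate 1 and 4 in replicate 2, and 12 of the 15 had none in either. Their sum of 2.34 CPM (1.28 to 3.92) in replicate 1 and 0.599 CPM (0.163 to 1.53) in replicate 2 lay below that of the 4 miR-290 cluster genes, with no overlap of the intervals in either library. Gene by gene this did not hold. Mir741 of the reference had 7 and 4 counts, a mean of 0.884 CPM, above Mir295 (0.642 CPM) and Mir291a (0.616 CPM). Those 2 members were thus not set apart from the low reference. The let-7 genes, late miRNAs of differentiated cells, held 12.9% and 13.5% of the counts over 10 listed genes. By contrast the miR-302 cluster held 0.0115% and 0.0130%. The genes nearest in level to Mir302a were Mir6236 and Mir701, each 0.01 from its mean log2(CPM + 1) over the 2 libraries. Nearest to Mir293 were Mir219a-2, at a distance of 0.01, and Mir6538, at 0.02.

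Between the pools the ratios of the 6 tested members stayed under 2-fold, though the intervals of Mir302c and Mir294 reached beyond it. Genes with at least 10 summed counts were compared by a two-sided exact binomial test, adjusted by Benjamini-Hochberg over 466 genes. A gene was called where the adjusted p was under 0.05 and the pools differed at least 2-fold. This compares the 2 libraries, not conditions. Of the 9 genes 6 could be tested and 0 were called, against 27 of all tested genes, or 5.79%. With 6 genes, a count of 0 lies near that background. At an unadjusted p under 0.05 there were 3 of the 6 (Mir302b, Mir302d and Mir294), a share near the 51.1% of all tested genes (238 of 466). With edgeR's exact test 0 of the 6 and 4 of all tested genes (0.858%) were called. Its dispersion was estimated with the 2 pools taken as replicates, so differences between the pools count as error there, and its 0 adds no support.

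Ratios are of replicate 2 over replicate 1 with 1 CPM added, while their intervals are of the count ratio with none added. Mir302d was higher by 0.32 on the log2 scale (95% exact interval of the count ratio 0.08 to 0.58; adjusted p = 0.0179, exact binomial test), past the p threshold but under the fold limit. Mir302b stood at 0.32 (0.01 to 0.67; adjusted p = 0.0815), Mir302c at 0.11 (-0.84 to 1.16) and Mir302a at -0.05 (-0.28 to 0.18). In the miR-290 cluster Mir293 stood at -0.04 (-0.86 to 0.76) and Mir294 at -0.70 (-1.90 to 0.03; adjusted p = 0.0921). So 3 of the tested members were higher and 3 lower in replicate 2. The median of the 4 tested miR-302 genes was 0.22 and that of Mir293 and Mir294 was -0.37, beside -0.11 over all tested genes.

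**Figure D4:**
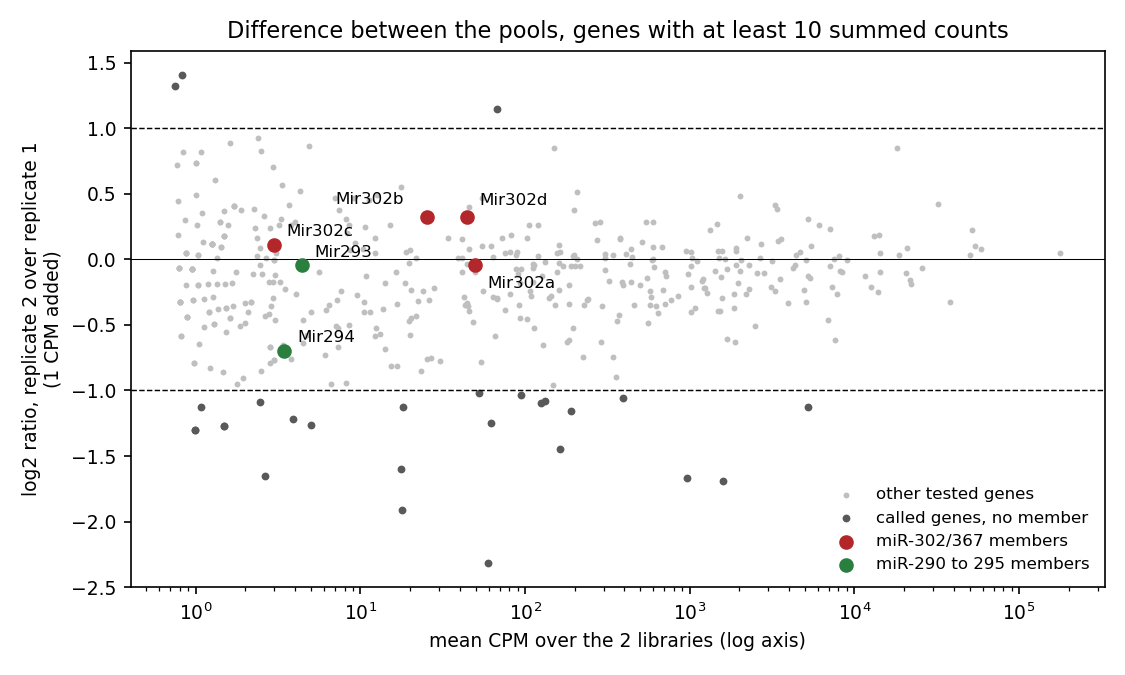
Log2 ratio of replicate 2 over replicate 1 (1 CPM added) against mean CPM (log axis) for the 466 genes with at least 10 summed counts; red and green points are the tested members, dark grey points are called genes, and dashed lines mark the 2-fold limit. All 6 tested members lie between the dashed lines, from -0.70 for Mir294 to 0.32 for Mir302b and Mir302d.

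For the summed counts of a cluster no CPM was added. The ratio was 0.17 for miR-302 (0.03 to 0.32) and -0.33 for the miR-290 cluster (-0.89 to 0.22). Only the first interval lay clear of 0. The scaling sets the zero of these ratios: with DESeq2 size factors the median of all tested genes moved from -0.11 to 0.00. The sums then stood at 0.33 for miR-302 and -0.18 for the miR-290 cluster. With the same factors Mir302a stood at 0.11 and Mir293 at 0.08, both on the other side of 0, while Mir302b and Mir302d stood at 0.47 and Mir294 at -0.58. Calls over all genes went from 3 higher and 24 lower to 6 higher and 16 lower with these size factors. With edgeR's TMM scaling Mir302a (0.08) and Mir293 (0.06) crossed 0 as well, and calls were 4 higher and 18 lower. The sums were then 0.30 for miR-302 and -0.20 for the miR-290 cluster.

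Markers of the labelled organ were abundant. The smooth muscle pair Mir143 and Mir145a held 17.8% and 18.3% of counts, 3 epithelial miR-200 genes 4.03% and 4.02%, and the vessel gene Mir126a 2.62% and 2.50%. The stratified epithelium genes Mir203 and Mir205 held 1.72% and 1.18%, and the glandular or endocrine genes Mir375 and Mir192 1.44% and 2.47%. Of the neural genes, Mir9-2 was at 0 in both libraries and Mir137 stood at 1332 and 1148 CPM. Mir9-3, which was not on the marker list, had a mean of 2.93 CPM. Whether reads matching several places lowered the Mir9-2 count was not tested, so its 0 is not read as absence. The liver gene Mir122 held 0.244% in replicate 1 and 0.0757% in replicate 2, and the red cell genes Mir451a and Mir144 0.0702% and 0.0334%. By the test above all 3 were lower in replicate 2, where Mir122 fell by 1.69 on the log2 scale, while the miR-302 sum stood at 0.17. Their part in the values of the 9 genes was not tested.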

How the data were processed

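Small RNA of 2 stomach pools was sequenced. The authors deposited raw counts of reads for each miRNA gene, in a separate table for each library. Assembly mm10 and annotation GENCODE M4 are named in the deposited description files. Which aligner and which counting method were used is not given in the sources used here. Columns carry no names: the first of 3 counts is the sum of the other 2 in all gene rows, and the second was taken from the values as the sense strand. Lines naming no gene were left out of totals: reads matching several places (25.5% and 27.0% of all reads), unmapped (18.0% and 16.2%) and outside genes (2.92% and 2.26%). Symbols came from GENCODE M21, where 1894 of 1973 identifiers matched.

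The members, lists and tests were chosen with earlier results of these data known. Named are the 9 members, other genes of the miR-290 locus, genes of like seed, let-7 and X-linked testis lists, tissue markers, and the 2 genes nearest in mean log2(CPM + 1) to each cluster's highest member. Larp7 and Nlrp12 are named as overlapping genes. Mir92-1 and Mir92-2 are the symbols in use for Mir92a-1 and Mir92a-2. The exact binomial test was applied to all genes with at least 10 summed counts and was tested on simulated data. The simulated counts held counting error only, with no spread between pools, so they do not bear on such spread here. Alternatives covered strand, denominator, scaling, count minimum, fold limit, pseudocount, test and leaving out each replicate. Software was DESeq2 1.42.0 (size factors) and edgeR 4.0.16 in R 4.3.3, and scipy 1.17.1, numpy 2.4.6, pandas 2.3.3 and matplotlib 3.10.9 in Python 3.11.15.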

Additional observations from a re-analysis of the deposited data

Results flagged for a closer look

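Reads matching several places, which no comparison above uses, numbered 2946663 in replicate 1 and 3406967 in replicate 2, or 25.5% and 27.0% of all reads. They are not split by gene, so the part that came from Mir302a, Mir302b, Mir302c and Mir302d was not tested. The 3p strands of Mir302b, Mir302c and Mir302d share stretches of 16 to 18 bases with Mir302a, whose hairpin shares 20 bases with Mir302b.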

How the results depend on the processing

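With all reads of a table as the denominator the miR-302 sum went from 123 to 64.2 CPM and the miR-290 cluster sum from 9.14 to 4.78 CPM, by construction, and their difference kept its value of 3.75 on the log2 scale. With Mir290a, Mir291b and Mir292 added, an alternative chosen after seeing the data, the miR-290 cluster sum was 12.03 CPM and the difference 3.37. Pseudocounts of 0.5 and 1 CPM gave 3.68 and 3.61, and hairpin length 3.98, of which the last 2 were added after seeing the data. Without either replicate the sums ranged from 115 to 130 CPM and from 8.09 to 10.2 CPM, and the difference from 3.50 to 4.01. The 6 members above the limit in both libraries were 6 at 10 counts, 8 at 1 count and 7 without either replicate. Of the calls between pools, 27 in number, a minimum of 100 counts left 16 (fewer genes tested), dropping the fold limit gave 216, and edgeR's exact test, whose dispersion takes the pools as replicates, gave 4. The other settings run gave 22 to 31. Called members were 0 throughout, except without the fold limit, where Mir302d was 1. No paired analysis was possible because only 1 group was studied. Depth limits Mir291a, Mir295 and Mir367, at under 10 counts each per library.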
